A study of Mus musculus with 16 samples.

Results

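Insulin-like growth factor 1 (Igf1), its receptor Igf1r, the binding proteins Igfbp2, Igfbp3, Igfbp4, Igfbp5, Igfbp6 and Igfbp7 and the protease Pappa were followed in heart ventricles of neonatal mice. These 9 genes were taken by symbol from a count table of 22468 genes, and all 9 passed the filter on low counts that left 13412 genes for testing. The 16 samples formed 4 groups of 4: Chrna7 knockout after myocardial infarction (KO MI), Chrna7 knockout after sham surgery (KO sham), wild type after infarction (WT MI) and wild type after sham surgery (WT sham). The knockout is a whole-animal line (Jackson Laboratory stock 003232) that lacks Chrna7; this gene encodes a nicotinic acetylcholine receptor subunit known for relaying a vagal brake on inflammation in macrophages. Infarction was made by tying off a coronary artery, whole ventricles above and below the ligature were taken, and poly(A) RNA was sequenced. The labels give no age beyond neonatal, no sex, no time of harvest and no statement that each sample is a separate animal, so p-values measure the spread between these samples, which may be technical.

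IGF1 reaches the heart from the liver through the blood and is also made within the tissue, by fibroblasts and macrophages among others. It binds the receptor tyrosine kinase IGF1R, which signals through insulin receptor substrates, PI3-kinase and AKT to growth and survival, and AKT keeps FOXO transcription factors out of the nucleus. Binding proteins hold IGFs away from the receptor or deliver them to it, the protease PAPPA frees IGFs by cutting some of them, and stanniocalcins inhibit PAPPA. In the developing and neonatal heart this pathway is known for supporting cardiomyocyte proliferation and growth.

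Gene counts per library were 13857909 to 14683416 in KO MI, 12449879 to 15501352 in KO sham, 10871418 to 17223580 in WT MI and 10711442 to 13504923 in WT sham. Levels are in CPM, the standard unit of the edgeR cpm function, with totals scaled by TMM. On the totals before that scaling, 3 counts correspond to 0.174 to 0.28 CPM, a limit that covers counting error only. Chrna7 had 0 to 4 reads per library in either genotype, which checks neither the deletion nor the labels. The 4 KO sham libraries stood apart on the first principal component (scores of 27.9 to 31.6, all other libraries below 1), and the libraries KO MI 1, KO sham 2 and WT sham 1 had almost no Y-linked reads. KO MI 4 stood apart from its group, with scores of 30.5 and -26.9 on components 2 and 3, 13350 CPM of the myosin gene Myh6 against 31780 to 33750 CPM in the other KO MI libraries, and 237 CPM of the lung gene Sftpc against 16.03 to 24.7 CPM. Without it 21.7% of all genes were called in KO MI against KO sham, 4.18% in WT MI against WT sham and 4.51% in the interaction, and Igfbp6 had log2 values of 0.998, -0.904 and 1.902 there (adjusted p of 0.0109, 0.0303 and 0.00524). The labelled ventricle was checked against cardiomyocyte markers, which summed to 54130 to 95920 CPM over the 16 libraries, while lung epithelium markers ranged from 0.078 to 324 CPM. Because the tissue is bulk, fewer cells of a type and less RNA per cell cannot be told apart in any of these results.

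Per kilobase of transcript, Igfbp7 was the most abundant of the 9 mRNAs, with a mean of 279 CPM per kb over the 16 samples. Igfbp4 followed with 37.8, Igfbp6 with 9.15, Igfbp5 with 6.01, Igfbp3 with 5.23, Igf1r with 2.22, Igf1 with 1.49, Igfbp2 with 1.30 and Pappa with 0.0517 CPM per kb. Igfbp7 exceeded Igfbp4, and Igfbp4 exceeded Igfbp6, in 16 of 16 samples. The order of some neighbours differed by group. Igfbp6 lay below Igfbp5 in 4 of 4 KO sham samples and above it in the 12 others. Igfbp5 lay below Igfbp3 in 4 of 4 WT MI samples, and above it in 3 of 4 KO MI, 4 of 4 KO sham and 4 of 4 WT sham samples. Igf1 exceeded Igfbp2 in 4 of 4 KO MI samples and in 2 of 4 samples of each other group, so in those groups they were not separated within their spread. Of the summed per-length level of the 6 binding protein mRNAs, Igfbp7 held a mean of 82.1% in KO MI, 85.3% in KO sham, 83.8% in WT MI and 77.8% in WT sham. The share of Igfbp6 was 2.84% in KO MI, 1.37% in KO sham, 2.12% in WT MI and 4.72% in WT sham.

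**Figure D1:**
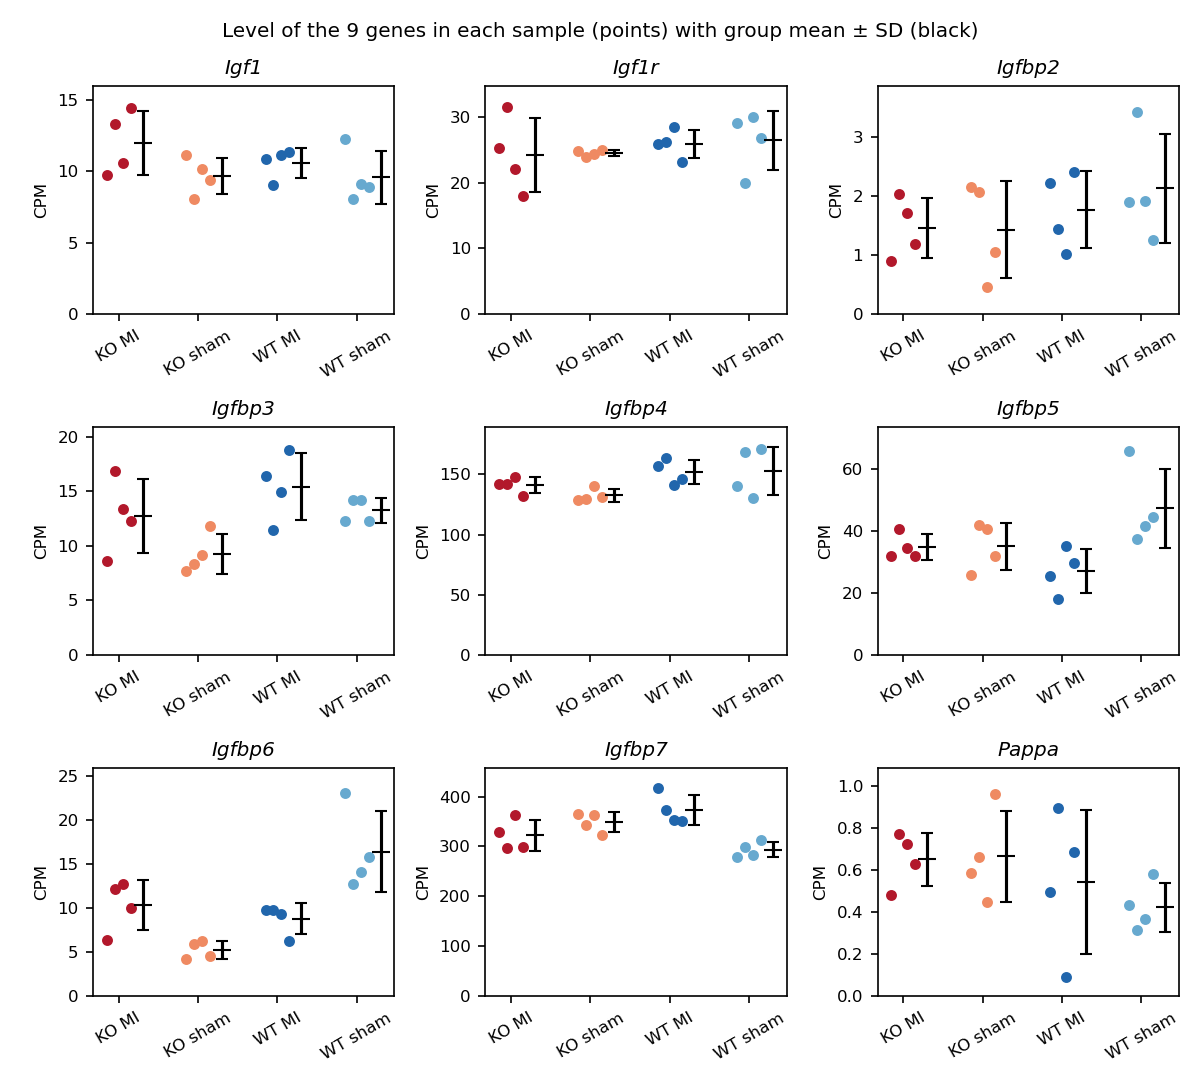
Levels in CPM (vertical axes from 0) of the 9 genes in each of the 16 samples (points; 4 per group), with the group mean ± SD in black. Igfbp6 lies between 4.23 and 6.20 CPM in KO sham, below every KO MI and WT sham sample, and Igfbp7 in WT MI lies between 351 and 417 CPM, above every WT sham sample.

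Igfbp6, a binding protein that prefers IGF2 over IGF1, differed most between groups. Its level was 6.37, 12.1, 12.7 and 10.02 CPM in KO MI, 4.23, 5.88, 6.20 and 4.49 CPM in KO sham, 9.79, 9.79, 9.34 and 6.18 CPM in WT MI, and 23.1, 12.7, 14.1 and 15.9 CPM in WT sham. The 4 KO sham samples were the lowest group, the 4 WT sham samples the highest, and both infarct groups lay between them on average. Neither KO MI and KO sham, nor WT MI and WT sham, nor KO sham and WT sham overlapped, whereas KO MI and WT MI did. These values rest on 56 to 267 reads per library.

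In knockout hearts Igfbp6 rose 1.99-fold after infarction (log2 0.99 ± 0.23, SE, n = 4 per group, 95% interval 0.51 to 1.46; edgeR quasi-likelihood test with Benjamini-Hochberg adjustment over all genes, adjusted p = 0.00732). In wild-type hearts it fell after infarction, 1.86-fold (log2 -0.90 ± 0.22, adjusted p = 0.0322). The response in knockout minus that in wild type, the interaction, was 1.89 ± 0.31 on the log2 scale (95% interval 1.23 to 2.54, adjusted p = 0.00383). After sham surgery the gene was 3.16-fold lower in knockout than in wild type (log2 -1.66 ± 0.23, adjusted p = 0.000121), the 101st largest difference in size among the 13412 genes tested. After infarction the difference between genotypes was 0.23 ± 0.22 (95% interval -0.23 to 0.68, adjusted p = 0.976). KO sham and WT sham each enter more than 1 of these comparisons, so they are not independent of each other. The knockout response, the sham difference and the interaction were called in 16 of 16 fits that left out a library, whereas the wild-type response was called in 11 of 16 and ended without WT MI 1, WT MI 4, WT sham 1, WT sham 3 or WT sham 4 (edgeR, adjusted p of 0.0528 to 0.114).

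Markers of the epicardium and mesothelium, the lining of the heart and body cavities, moved with Igfbp6 in the knockout response and the sham comparison. The summed level of the 8 listed genes was 55.5 to 131 CPM in KO MI, 32.9 to 41.3 CPM in KO sham, 67.6 to 82.7 CPM in WT MI and 97.1 to 143 CPM in WT sham, and none of the 8 was at 0. In KO MI against KO sham 7 of the 8 were called higher, where 8.54% of all genes were. In KO sham against WT sham 7 were lower (7.74% of all genes), and in WT MI against WT sham 1 was (0.932%). The interaction was called positive in 7 (1.65% of all genes), and Tbx18 was called in none of the comparisons. Median log2 differences over the 8 in the first 3 of these were 1.62, -1.15 and -0.42, against 0.01, -0.01 and -0.01 over all genes tested. In WT MI against WT sham the values of Krt8, Krt18 and Tbx18 were positive (log2 0.63, 0.18 and 0.24, not called), opposite to Igfbp6, and the others negative. Among 10358 genes of at least 5 CPM, the 3 whose log2 CPM followed Igfbp6 most closely over the 16 samples were Upk3b, a uroplakin (Pearson r 0.952), Msln, the mesothelin gene (0.943), and Ube2l6, a ubiquitin-like conjugating enzyme (0.931); Upk3b and Msln are on the marker list. Libraries share their scaling, and the group means carry much of this likeness: after the means were removed, the 3 closest were C1ra (0.923), Trpv4 (0.841) and Ube2l6 (0.814). Red cell markers (7 genes, none at 0) also moved with Igfbp6: 3 rose in KO MI against KO sham, 5 fell in WT MI against WT sham, 7 were lower in KO sham than in WT sham and 5 had a positive interaction, with median log2 values of 0.44, -0.97, -1.80 and 1.17. Their summed level was 1124 to 1859 CPM in KO MI, 990.7 to 1407 CPM in KO sham, 1711 to 2116 CPM in WT MI and 2966 to 4731 CPM in WT sham. Of 4 atrial markers (none at 0, sums of 647.9 to 2744 CPM in KO MI, 271.9 to 607.3 CPM in KO sham, 1345 to 2180 CPM in WT MI and 709.3 to 3316 CPM in WT sham), 4 were lower in KO sham than in WT sham. In KO MI against KO sham 1 rose, Nppa (log2 2.50, edgeR, adjusted p = 0.0169), which held 1265 of the mean sum of 1625 CPM in KO MI. Myl7, Myl4 and Sln were not called there. None of the 4 was called in WT MI against WT sham or in the interaction, where Igfbp6 was. The shares of all genes given above for each comparison are also the background of the red cell and atrial counts. The part of any of these cell types in the Igfbp6 result was not tested.

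**Figure D2:**
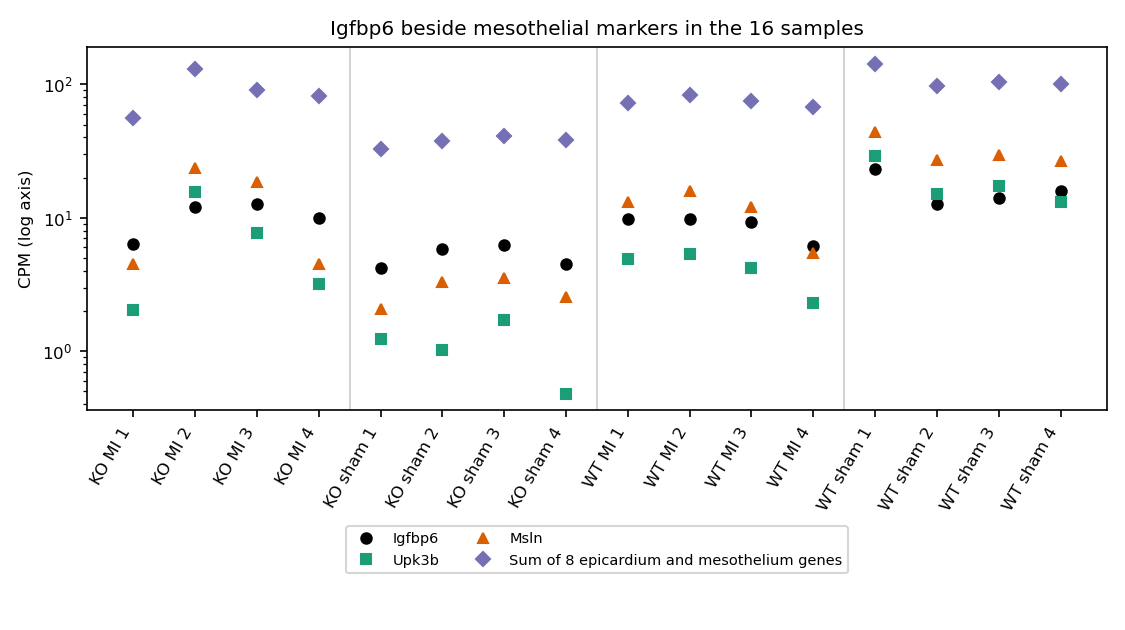
Levels in CPM on a log axis of Igfbp6, Upk3b, Msln and the sum of 8 epicardium and mesothelium genes in each of the 16 libraries, with the groups separated by grey lines. All 4 series are lowest in KO sham as a group and highest in WT sham, and KO MI 1 (Igfbp6 6.37 CPM, marker sum 55.5 CPM) is the lowest KO MI library in each.

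Igfbp7, an endothelium-rich secreted protein that binds IGFs only weakly, was the second member with an interaction. Its level was 328.5, 298, 364 and 299 CPM in KO MI, 365, 342, 364 and 322 CPM in KO sham, 417, 373, 353 and 351 CPM in WT MI, and 279, 298.5, 283 and 313 CPM in WT sham. WT sham was the lowest group and did not overlap WT MI or KO sham, and the knockout groups overlapped each other. In wild type it rose 1.27-fold after infarction (log2 0.35 ± 0.09, adjusted p = 0.0344), and in knockout the value was -0.11 ± 0.08 (95% interval -0.29 to 0.06, adjusted p = 0.382). The interaction was -0.46 ± 0.12 (adjusted p = 0.043). Between genotypes the difference was 0.25 ± 0.09 after sham (adjusted p = 0.0545) and -0.21 ± 0.08 after infarction (adjusted p = 0.976), neither of them called.

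The Igfbp7 calls were near the threshold: the wild-type response was called in 10 of 16 fits that left out a library and ended without KO sham 2, WT MI 1, WT MI 2, WT sham 1, WT sham 2 or WT sham 3 (edgeR, adjusted p of 0.0524 to 0.159). The interaction was called in 4 of 16, those without KO MI 3, KO MI 4, WT MI 2 or WT sham 4, and had adjusted p of 0.0505 to 0.101 in the rest. The sham difference was called by DESeq2 (adjusted p = 0.0226) and limma voom (adjusted p = 0.00648). With the correction for transcript length and GC content it was 0.44 (adjusted p = 0.000128), and KO MI against KO sham was then -0.33 and called (adjusted p = 0.00208). Endothelial markers (6 genes, none at 0) summed to 1181 to 1612 CPM in KO MI, 1537 to 1621 CPM in KO sham, 1389 to 1507 CPM in WT MI and 1287 to 1466 CPM in WT sham. Their median log2 value was 0.14 in WT MI against WT sham, 0.18 in KO sham against WT sham and -0.22 in the interaction, the same signs as those of Igfbp7. Emcn had the opposite sign in the last 2 of these (log2 -0.25 and 0.11, not called). Of the 6, Tie1, an endothelial receptor tyrosine kinase, was called higher in KO sham than in WT sham (log2 0.39 ± 0.11, adjusted p = 0.0199), and the others were called in none of these comparisons. The part of endothelial cells in the Igfbp7 values was not tested. The genes closest to Igfbp7 over the 16 samples were Bcl3, a partner of NF-kappa B (Pearson r 0.879), Alox12, a lipoxygenase (0.874), and Rasa4, a Ras GTPase-activating protein (0.824). After the group means were removed, the closest were instead Fbxw9 (0.88), Aamp (0.858) and Pttg1 (0.856).

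Igfbp5, which binds extracellular matrix as well as IGFs, fell in wild-type hearts after infarction. The samples gave 31.9, 40.7, 34.7 and 31.9 CPM in KO MI, 25.7, 41.9, 40.8 and 32.1 CPM in KO sham, 25.5, 18.1, 35.2 and 29.7 CPM in WT MI, and 65.9, 37.3, 41.8 and 44.5 CPM in WT sham. WT MI lay wholly below WT sham, and the knockout groups overlapped. The wild-type fall was 1.76-fold (log2 -0.81 ± 0.20, adjusted p = 0.0423), and the knockout value was -0.01 ± 0.20 (95% interval -0.43 to 0.41). The interaction of 0.80 ± 0.28 was not called (adjusted p = 0.141), so the responses were not shown to differ between genotypes. The wild-type call held in 6 of 16 fits that left out a library, those without KO MI 2, KO sham 1, KO sham 2, KO sham 3, WT MI 3 or WT sham 2; log2 values were -0.97 to -0.61 over the 16, and adjusted p was 0.0524 to 0.14 where the call ended. With the correction for length and GC content the interaction was 0.91 and called (adjusted p = 0.0448), as was KO sham against WT sham at -0.54 (adjusted p = 0.0369). Fibroblast markers (8 genes, none at 0) summed to 7331 to 7628 CPM in WT MI and 6437 to 7392 CPM in WT sham, with none called, and their part was not tested. Plxnc1, a semaphorin receptor (Pearson r 0.846), Cdon, a Hedgehog co-receptor (0.84), and Tbx20, a cardiac transcription factor (0.819), followed Igfbp5 most closely. After the group means were removed, the closest were Agap1 (0.862), Cdon (0.856) and Agap2 (0.852).

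Of the 9 genes, 1 was called in KO MI against KO sham (Igfbp6, higher; 11.1% of the members, against a background of 16.6% of all genes tested and 8.54% called higher). In WT MI against WT sham 3 were called (Igfbp7 higher, Igfbp5 and Igfbp6 lower; 33.3%, against 2.25% of all genes, with 1.32% higher and 0.932% lower), in KO sham against WT sham 1 (Igfbp6, lower; 11.1%, against 15.3% of all genes and 7.74% lower) and in the interaction 2 (Igfbp6 positive, Igfbp7 negative; 22.2%, against 2.74% of all genes, with 1.65% positive and 1.1% negative). None was called in KO MI against WT MI, where edgeR called 0.0149% of all genes, and DESeq2 and limma voom called none either. In that comparison 1 member, Igfbp7, had an unadjusted edgeR p under 0.05, as did 638 of the 13412 genes tested. With 1 of 9 genes called, the knockout response and the sham comparison were near the background. That share was below the one of all genes called in either direction and above the one called in the same direction. The 3 wild-type calls ended together when the libraries with almost no Y-linked reads were left out, with adjusted p of 0.0677 for Igfbp6, 0.14 for Igfbp7 and 0.142 for Igfbp5, where 1.23% of all genes were called. Of those libraries, WT sham 1 is the one in this comparison. Leaving out WT sham 1, WT MI 1 or WT sham 3 alone also ended all 3 calls (edgeR, adjusted p of 0.0528 to 0.159). WT MI 1 and WT sham 3 had Y-linked sums of 155.5 and 187.6 CPM.

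**Figure D3:**
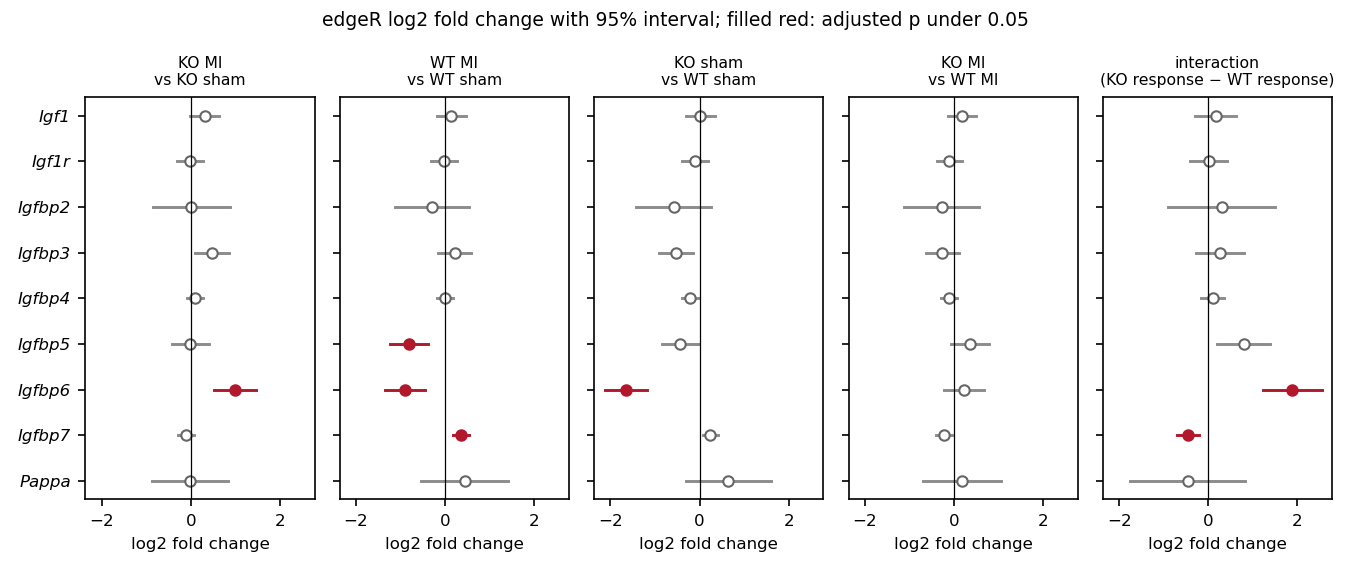
Log2 fold change (horizontal axes) of each of the 9 genes in the 5 comparisons, with its 95% interval; red filled points have an adjusted p under 0.05 (edgeR). Igfbp6 is called in 4 of the 5 panels, from -1.66 in KO sham against WT sham to 1.89 in the interaction, and Igf1, Igf1r, Igfbp2, Igfbp3, Igfbp4 and Pappa are called in none.

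The promoters of the 3 members that were called are given so that their base composition and core motifs can be read against each other; they are from RefSeq on GRCm38.p6, 5′ to 3′ on the gene's strand, from 250 bases before to 50 bases after the annotated start. Igfbp6 lies at chr15:102143936-102144235 (plus strand), Igfbp7 at chr5:77407996-77408295 (minus strand) and Igfbp5 at chr1:72874816-72875115 (minus strand). Capitals mark the GC box, the TATA box, the CCAAT box and the TEAD motif on either strand, and no marked stretches overlap.
Igfbp6: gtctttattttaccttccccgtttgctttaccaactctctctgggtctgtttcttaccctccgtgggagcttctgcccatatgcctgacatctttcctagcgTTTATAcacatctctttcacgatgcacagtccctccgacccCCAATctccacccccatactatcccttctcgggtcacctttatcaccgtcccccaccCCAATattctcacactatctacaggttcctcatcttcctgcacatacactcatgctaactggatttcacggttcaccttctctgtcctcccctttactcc
Igfbp7: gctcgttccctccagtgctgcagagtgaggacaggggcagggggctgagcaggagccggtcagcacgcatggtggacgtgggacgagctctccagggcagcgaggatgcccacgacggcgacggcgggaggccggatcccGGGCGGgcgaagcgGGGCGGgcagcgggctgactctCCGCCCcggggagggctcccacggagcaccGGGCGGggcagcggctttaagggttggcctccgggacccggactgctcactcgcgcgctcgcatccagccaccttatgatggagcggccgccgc
Igfbp5: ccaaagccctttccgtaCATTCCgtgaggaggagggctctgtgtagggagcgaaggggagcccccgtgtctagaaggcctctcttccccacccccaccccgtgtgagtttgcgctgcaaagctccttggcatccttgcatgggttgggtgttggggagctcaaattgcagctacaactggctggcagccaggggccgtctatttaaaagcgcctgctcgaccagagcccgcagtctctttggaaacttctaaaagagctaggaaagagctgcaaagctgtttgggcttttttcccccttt
The Igfbp6 window held 49.7% G and C, 1 TATAAA on the opposite strand at position -148 from the start and 2 CCAAT. The Igfbp7 window held 73.3% G and C and 4 GC boxes. The Igfbp5 window held 56.3% G and C and 1 CATTCC at position -233. The median over 32851 RefSeq promoter windows of this length was 52.7% G and C, and the GC box GGGCGG was present in 35.7% of them, the TATA box TATAAA in 13.6%, the CCAAT box in 37.4% and the TEAD motif CATTCC in 14.7%.

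A promoter window was matched for 8 of the 9 genes, and 9 windows were read because Igfbp2 had 2 starts. GGGCGG was found in the windows of Igf1r, Igfbp2 and Igfbp7, TATAAA in Igfbp4 and Igfbp6, and CCAAT in Igf1 and Igfbp6. The FOXO letters TGTTTAC, present in 3.65% of all windows, and the STAT letters TTCNNNGAA, present in 8.3%, were in none of the 9. The AP-1 letters TGANTCA (7.81% of all windows) were found for Igf1 and Igfbp2, the E-box CACGTG (7.15%) for Igfbp2, and the hypoxia response core ACGTG (19.6%), which the E-box contains, for Igfbp2 and Igfbp7. A match describes letters in these windows and not binding.

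Igf1 itself was not called in any comparison. It stood at 9.73, 13.3, 10.6 and 14.5 CPM in KO MI, 11.1, 8.09, 10.2 and 9.38 CPM in KO sham, 10.9, 9.01, 11.2 and 11.3 CPM in WT MI, and 12.3, 8.03, 9.14 and 8.89 CPM in WT sham. All 4 groups overlapped. The value in KO MI against KO sham was 0.31 ± 0.15 (95% interval -0.01 to 0.63, adjusted p = 0.17), and that in WT MI against WT sham 0.14 ± 0.16 (adjusted p = 0.737). With correction of each library for transcript length and GC content the knockout value was 0.53 (adjusted p = 0.00572), a call absent without the correction. In the uncorrected fit without KO MI 4, the library with the most Igf1, the knockout value was 0.20 (edgeR, adjusted p = 0.37). Of 9 macrophage markers 7 were called higher after infarction in knockout, where 8.54% of all genes were. Their summed level was 252 to 514 CPM in KO MI against 182 to 201 CPM in KO sham. In wild type 4 of 9 were called higher, where 1.32% of all genes were. Their sum was 210 to 315 CPM in WT MI against 143 to 170 CPM in WT sham. The part of macrophages in the Igf1 values was not tested.

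The receptor gene Igf1r had the smallest range of fitted differences between groups of the 9. It averaged 24.2 ± 5.71 CPM in KO MI, 24.5 ± 0.486 CPM in KO sham, 25.9 ± 2.167 CPM in WT MI and 26.4 ± 4.53 CPM in WT sham (SD, n = 4 each). Its 4 log2 differences between groups lay between -0.11 and -0.02, each with an SE of 0.14, so the 95% intervals allowed changes of up to -0.40 and 0.27. KO MI 4 (17.96 CPM) and KO MI 2 (31.5 CPM) marked both ends of its range over all 16 samples, and without KO MI 4 the value in KO MI against KO sham was 0.09 (adjusted p = 0.628). Igf1r lies on chromosome 7 at 4.74 Mb from Chrna7, and its difference between genotypes was -0.11 ± 0.14 after sham and -0.10 ± 0.14 after infarction.

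Igfbp3, the main carrier of IGFs in blood, gave 8.56, 16.8, 13.4 and 12.3 CPM in KO MI, 7.68, 8.31, 9.19 and 11.8 CPM in KO sham, 16.4, 11.46, 14.9 and 18.8 CPM in WT MI, and 12.3, 14.2, 14.3 and 12.3 CPM in WT sham. KO sham lay below WT sham without overlap, and the other pairs of groups overlapped. The sham difference was -0.53 ± 0.19 (95% interval -0.91 to -0.14, adjusted p = 0.0594), and KO MI against KO sham was 0.47 ± 0.18 (adjusted p = 0.0827). Neither was called, although DESeq2 (adjusted p = 0.0421) and limma voom (adjusted p = 0.0105) called the sham difference. Thbs4, a thrombospondin (Pearson r 0.867), Ddah1, which breaks down methylarginines (0.844), and Sdc4, a syndecan (0.838), followed it most closely. After the group means were removed, the closest were Rabgef1 (0.78), Thbs4 (0.746) and Sdc4 (0.712).

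Igfbp4, a PAPPA substrate, varied little, at 141 ± 6.44 CPM in KO MI, 133 ± 5.63 CPM in KO sham, 152 ± 10.3 CPM in WT MI and 153 ± 20.3 CPM in WT sham (SD, n = 4 each). Its log2 differences were 0.09 ± 0.09 in KO MI against KO sham and -0.21 ± 0.09 in KO sham against WT sham (adjusted p = 0.112). Igfbp2, abundant in the fetus, was low, at 1.45 ± 0.514 CPM in KO MI, 1.42 ± 0.821 CPM in KO sham, 1.77 ± 0.658 CPM in WT MI and 2.13 ± 0.922 CPM in WT sham. With 6 to 44 reads per library its SE was 0.40 to 0.41 in the comparisons of 2 groups. Pappa, the protease, had 1 to 15 reads per library and averaged 0.65 ± 0.129 CPM in KO MI, 0.664 ± 0.217 CPM in KO sham, 0.542 ± 0.342 CPM in WT MI and 0.422 ± 0.116 CPM in WT sham. In KO MI against KO sham the 95% intervals were -0.85 to 0.87 for Igfbp2 and -0.87 to 0.83 for Pappa. Differences within these bounds are therefore not excluded.

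**Figure D4:**
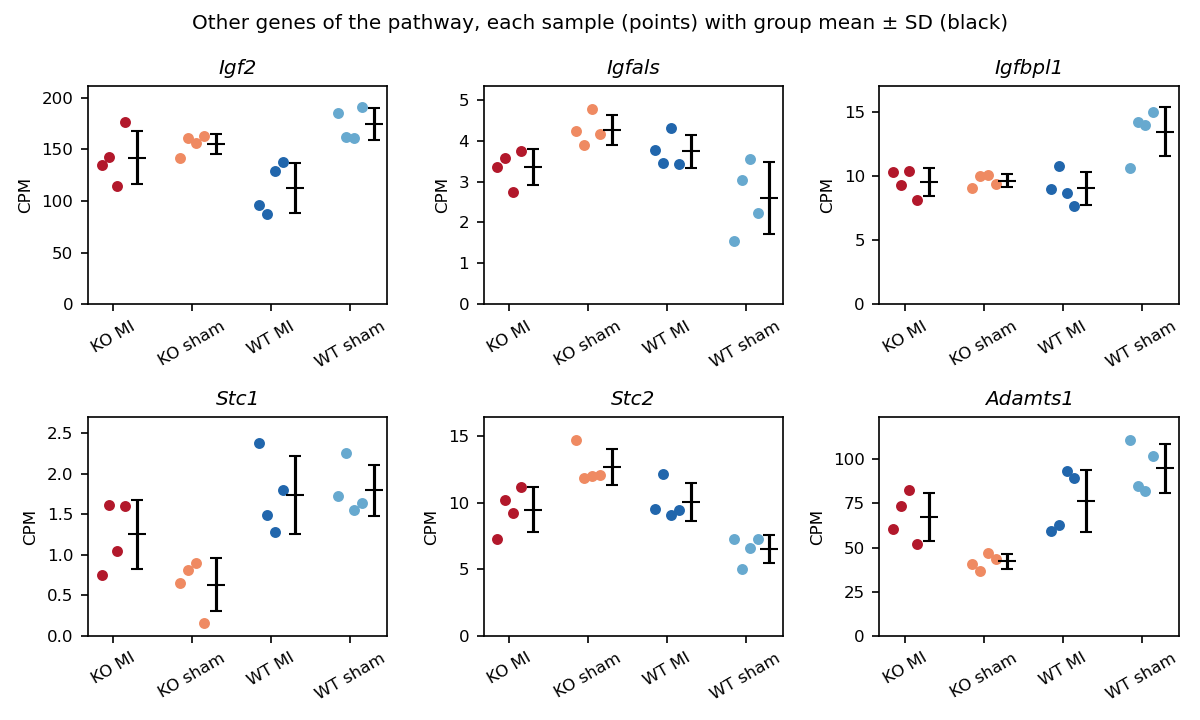
Levels in CPM (vertical axes from 0) of Igf2, Igfals, Igfbpl1, Stc1, Stc2 and Adamts1 in each of the 16 samples (points; 4 per group), with the group mean ± SD in black. Stc2 is at 11.8 to 14.7 CPM in KO sham and 4.99 to 7.26 CPM in WT sham, and Adamts1 is at 36.9 to 46.9 CPM in KO sham, below every other sample.

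Other genes of the pathway include the inhibitors and proteases of the binding protein system. Of 9 such genes 7 were tested, and in KO sham against WT sham 1 was higher and 2 were lower, where 7.6% of all genes were higher and 7.74% lower. Stc2, a stanniocalcin that blocks PAPPA, was 14.7, 11.8, 12.03 and 12.1 CPM in KO sham, against 7.26, 4.99, 6.58 and 7.25 CPM in WT sham, and was called higher (log2 0.96 ± 0.16, adjusted p = 0.000422). The groups did not overlap. Its relative Stc1 was lower, at 0.629 ± 0.329 CPM in KO sham and 1.80 ± 0.318 CPM in WT sham (log2 -1.49 ± 0.36, adjusted p = 0.00994). These levels are low: KO sham 4 was at 0.160 CPM, where 3 counts correspond to 0.241 CPM before scaling. The call held in 16 of 16 fits that left out a library. Adamts1, a secreted metalloproteinase of the ADAMTS family, was 40.9, 36.9, 46.9 and 43.8 CPM in KO sham, against 111, 85.2, 81.9 and 102 CPM in WT sham (log2 -1.17 ± 0.16, adjusted p = 0.000123).

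After infarction Adamts1 rose in knockout, to 67.2 ± 13.6 CPM in KO MI against 42.1 ± 4.26 CPM in KO sham (log2 0.67 ± 0.16, adjusted p = 0.00836). Its response differed between genotypes (interaction 0.99 ± 0.22, adjusted p = 0.0216, 0.0789 without the libraries with almost no Y-linked reads), and so did that of Stc2 (interaction -1.06 ± 0.22, adjusted p = 0.0109). Stc2 rose in wild type, at 10.1 ± 1.43 CPM in WT MI and 6.52 ± 1.07 CPM in WT sham (log2 0.64 ± 0.16, adjusted p = 0.0358), a call kept in 6 of 16 fits that left out a library. In knockout Stc2 was at -0.42 ± 0.15 (adjusted p = 0.0541). Adam9, Adam12, Ctsd and Htra1, the other genes tested in the list, were called in none of the 5 comparisons.

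Igf2, the second IGF and the form Igfbp6 prefers, was at 135, 143, 114 and 176 CPM in KO MI, 142, 161, 156 and 163 CPM in KO sham, 96.4, 87.6, 129 and 137 CPM in WT MI, and 186, 162, 161 and 190 CPM in WT sham. It fell in wild type after infarction, with no overlap (log2 -0.63 ± 0.13, adjusted p = 0.0164; 0.0819 without the libraries with almost no Y-linked reads), and in knockout the value was -0.13 ± 0.13 (adjusted p = 0.534). The interaction of 0.50 ± 0.19 was not called (adjusted p = 0.16). In its list of 11 ligands and growth hormone axis genes 7 were tested; Ghr, the growth hormone receptor, and Stat5b, its signal transducer, fell in KO MI against KO sham (log2 -0.29 and -0.43). The Ghr call held in 9 of 16 fits that left out a library and ended with upper quartile scaling, with the samples compared alone and without the libraries with almost no Y-linked reads, whereas that of Stat5b held in each of these. Cish, a target of that signal, was lower in KO sham than in WT sham (log2 -0.48, adjusted p = 0.00192). It was the 1 gene of the 7 called in that comparison. Socs2, Ghr, Jak2, Stat5a and Stat5b had positive values there (log2 0.09, 0.14, 0.16, 0.27 and 0.29) and Igf2 a negative one (log2 -0.17). Gh, Ghrh and Ins1 had no read in any library.

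Of 6 other receptors and binding proteins 4 were tested. Insr, the insulin receptor gene, stood at 62.1 ± 4.68 CPM in KO MI and 96.3 ± 5.75 CPM in KO sham, and fell (log2 -0.63 ± 0.10, adjusted p = 0.000646). It was higher in KO sham than in WT sham (log2 0.36 ± 0.10, adjusted p = 0.0229), a call that held in 13 of 16 fits that left out a library and ended with correction for length and GC content and without the libraries with almost no Y-linked reads. Igfals, the acid-labile subunit that joins IGF and IGFBP3 in blood, was at 4.27 ± 0.372 CPM in KO sham and 2.60 ± 0.885 CPM in WT sham (log2 0.71 ± 0.21, adjusted p = 0.0245), a call kept in 12 of 16 fits that left out a library and lost without the libraries with almost no Y-linked reads. Igfbpl1, a binding protein-like gene, fell in WT MI against WT sham (log2 -0.57 ± 0.13, called in 11 of 16 fits that left out a library) and was lower in KO sham than in WT sham (log2 -0.48 ± 0.13). Igfbp1, made mainly by the liver, had no read in any library.

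Of 25 genes of signalling from the receptor, 3 fell in KO MI against KO sham and 2 rose in KO sham against WT sham, against 8.02% and 7.6% of all genes tested, so both counts were near the background. Their median log2 differences were -0.15 and 0.16. Irs1, the receptor's docking protein, was at 10.5 ± 1.76 CPM in KO MI and 17.9 ± 1.88 CPM in KO sham (log2 -0.77 ± 0.20, adjusted p = 0.0143). Pik3r1, a regulatory subunit of PI3-kinase, fell in the same comparison (log2 -0.49 ± 0.14, a call that ended without the libraries with almost no Y-linked reads) and was higher in KO sham than in WT sham (log2 0.70 ± 0.14, adjusted p = 0.00237). Sos1, the exchange factor that activates Ras, followed the same directions (log2 -0.51 and 0.44), and both calls ended with correction for length and GC content. None of the 25 was called in WT MI against WT sham or in KO MI against WT MI.

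FOXO factors and genes they are known to induce were the list with most calls of the 5 pathway lists. The lists were chosen with earlier results of these data known, so their counts describe the genes listed and test no pathway. Of 16 genes, 8 were higher in KO sham than in WT sham (7.6% of all genes were) and none lower, with a median log2 difference of 0.36 against -0.01 over all genes tested. In KO MI against KO sham 9 fell (8.02% of all genes did) and none rose, with a median of -0.39 against 0.01. In WT MI against WT sham and in KO MI against WT MI none was called, and the medians were -0.04 and 0.05. In the interaction the median was -0.39, and 1 gene was called negative, where 1.1% of all genes were. That gene was Sesn1 (log2 -0.51, edgeR, adjusted p = 0.0395). For the rest of the list the responses were not shown to differ between genotypes. Both sets of calls use the KO sham samples, so the genes called in both (Cited2, Foxo3, Insr, Pdk4, Sesn1 and Txnip) are not independent evidence of 2 changes. Insr and Irs2 were listed here and in the lists above.

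Pdk4, a kinase that shuts down glucose oxidation, was at 124 ± 31.9 CPM in KO MI, 269 ± 54.9 CPM in KO sham, 99.4 ± 11.3 CPM in WT MI and 149 ± 14.8 CPM in WT sham. It fell in KO MI against KO sham (log2 -1.12 ± 0.15, adjusted p = 0.00024) and was higher in KO sham than in WT sham (log2 0.86 ± 0.15, adjusted p = 0.00125). In WT MI against WT sham it was at -0.58 ± 0.15 and just missed the threshold (adjusted p = 0.0527). That value was called in 4 of 16 fits that left out a library and in 6 of 13 other alternatives, DESeq2 and limma voom among them. Txnip, an inhibitor of thioredoxin, was at 537, 862, 589 and 888 CPM in KO sham, against 375, 437, 327 and 395 CPM in WT sham (log2 0.91 ± 0.15, adjusted p = 0.000798), without overlap. Sesn1, a stress-induced inhibitor of mTORC1 signalling, was at 62.4 ± 5.92 CPM in KO sham and 39.7 ± 1.66 CPM in WT sham (log2 0.65 ± 0.09, adjusted p = 0.000128). Irs2 had a negative value in that comparison and was not called (log2 -1.39 ± 0.48, adjusted p = 0.0701). Without the libraries with almost no Y-linked reads, 4 of the 16 were called higher in the sham comparison and 6 lower in the knockout response. The shares of all genes called there, in either direction, were 9.19% and 9.59%.

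**Figure D5:**
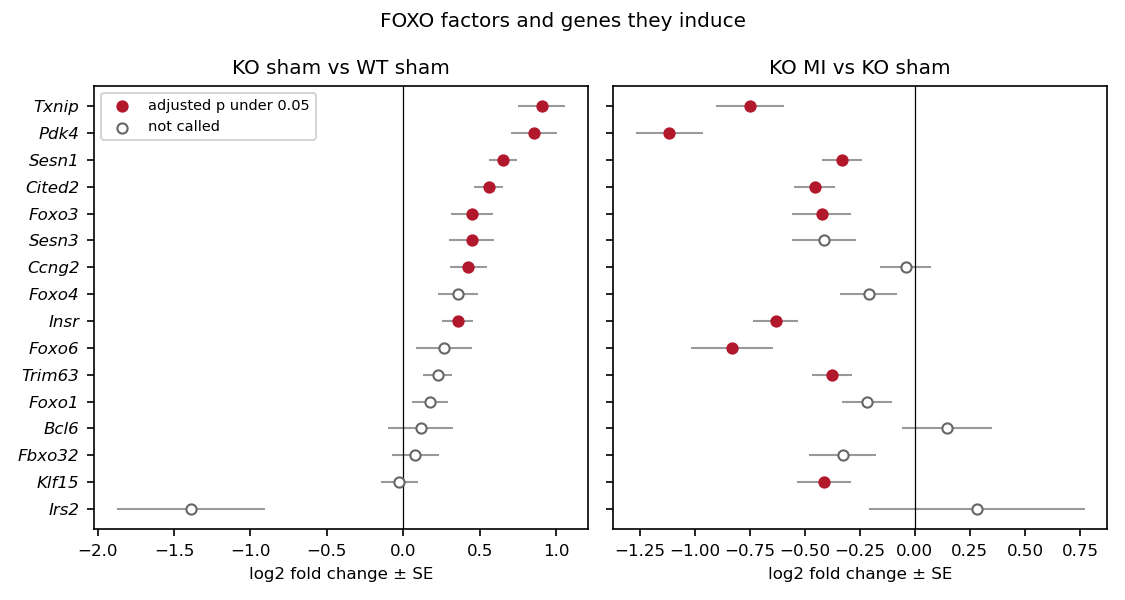
Log2 fold change ± SE (horizontal axes) of 16 FOXO factors and genes they induce, in KO sham against WT sham and in KO MI against KO sham; red points have an adjusted p under 0.05 (edgeR). In the first panel 8 genes are red and above 0, and in the second 9 are red and below 0; both panels contain the KO sham samples.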

How the data were processed

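Poly(A) RNA of 16 ventricle samples in 4 groups of 4 was sequenced. The authors deposited unnormalised counts of reads per Ensembl gene; per the submitters' processing notes the tools included HTSeq 0.13.5, HISAT2 2.2.1, cutadapt 3.4 and bcl2fastq 2.17, with the build GRCm39. The annotation release and strand setting are not given in the sources used here. Symbols, transcript lengths and GC content came from GENCODE on GRCm38, an older build, and promoters from RefSeq on GRCm38.p6; no coordinates are given other than those of the promoter windows, on that build. The 5 lines of reads assigned to no gene were left out; reads in no feature made up 23.7 to 28.2% of all reads in the table and ambiguous reads 1.56 to 2.08%. Without a strand setting, Igfbp7 may hold reads of Polr2b, which it overlaps on the opposite strand.

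Counts were fitted with edgeR 4.0.16 (R 4.3.3), using TMM scaling and filterByExpr on the 4 groups. The model had 1 mean per group over all 16 samples, 12 residual degrees of freedom and robust quasi-likelihood dispersions. Contrasts were two-sided and adjusted by Benjamini-Hochberg over 13412 genes, and called at an adjusted p under 0.05. The SE is that implied by the F statistic. CPM used TMM-scaled totals, and log2 CPM for likeness between genes a prior count of 2. The alternatives included DESeq2 1.42.0, limma 3.58.1 voom, other scalings and filters, a replicate block, a Y-linked index, a correction for length and GC content, and leaving out libraries; an analysis without KO MI 4, WT MI 2 and WT sham 2, which stand apart on principal component 4, was added after seeing the data. The fit was tested on simulated data. All members are named throughout; in each pathway list the 4 genes with the smallest p in any comparison of 2 groups were eligible to be named, and others named were chosen after their values were seen. The members and the lists were chosen with earlier results of these data known. No 2 libraries of the same group agreed within sampling noise.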

Additional observations from a re-analysis of the deposited data

Results flagged for a closer look

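Igfbp6 in WT MI replicate 4 stood apart from its group at 6.18 CPM, against 9.34 to 9.79 CPM in the other 3 WT MI libraries. Its distance to the nearest of them was 0.875 of the group's range, above Dixon's 95% critical value for 4 samples. Of 36 groups of 4 values (9 genes in 4 groups) it was the 1 that passed, and chance alone passes about 1 in 20. The marker sum of the epicardium and mesothelium was also lowest of its group in that library (67.6 CPM). Without it the wild-type response of Igfbp6 was no longer called (adjusted p = 0.091).

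The difference between genotypes in the response of Igfbp6 to infarction, knockout minus wild type, was 1.89 on the log2 scale (edgeR, adjusted p = 0.00383). The gene was higher after infarction in 4 of 4 KO MI samples than in any KO sham sample, and lower in 4 of 4 WT MI samples than in any WT sham sample. The corresponding value of Igfbp7 was -0.459 (edgeR, adjusted p = 0.043), with 4 of 4 WT MI samples above every WT sham sample and overlapping knockout groups.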

How the results depend on the processing

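Over 720 values of the members in fits that left out 1 library, 644 kept direction and side of the threshold, 33 lost a call, 9 gained one and 34 changed sign without a call in either fit; over 552 values under the other alternatives the counts were 490, 15, 15 and 32, and no called value reversed. The number of members called, 1 in KO MI against KO sham, was 2 with limma voom and 3 with the correction for length and GC content, and 1 to 2 without 1 library. The 3 of WT MI against WT sham were 1 when the samples compared were fitted alone, and 0 with the Y-linked index or without the libraries with almost no Y-linked reads, and 0 to 3 without 1 library. The 1 of KO sham against WT sham was 3 with DESeq2, with limma voom, with the samples compared alone and with the length and GC correction, and 2 without haemoglobin and mitochondrially encoded genes, with the Y-linked index and without KO MI 4, WT MI 2 and WT sham 2 together, and 1 to 2 without 1 library. The 2 of the interaction were 1 without a filter, with the replicate block, with the Y-linked index and without the libraries with almost no Y-linked reads, 3 with the length and GC correction, and 1 to 2 without 1 library. For KO MI against WT MI the count was 0 throughout. The cause of these differences was not tested. Replicate numbers gave no general pairing. Correlations of same-numbered samples ran from -0.0968 to 0.157, except for 0.475 between WT MI 2 and WT sham 2. These 2 libraries also had the least of the lung gene Sftpc (1.015 and 0 CPM, against 16.03 CPM or more in the others). What they share was not tested. With the replicate block the Igfbp5 response in wild type and the Igfbp7 interaction lost their calls (edgeR, adjusted p = 0.0844 and 0.0573), and the other members' calls stood. The share of all genes called, leaving single libraries aside, ran from 9.59% (without the libraries with almost no Y-linked reads) to 35.9% (limma voom) in KO MI against KO sham, from 9.19% to 29.1% under the same settings in KO sham against WT sham, from 1.23% to 4.17% in WT MI against WT sham and from 1.61% to 11.3% in the interaction. The length and GC correction moved the share of calls that were higher to 41.3% from 51.6% in KO MI against KO sham, and to 49.8% from 60.1% in the interaction. Depth limits Igfbp2 and Pappa most, with at most 44 and 15 reads per library. The interaction was not refitted with the samples compared alone, because it uses all 16.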

Other observations

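Igfbp2 and Igfbp5 are adjacent on chromosome 1, 5.46 kb apart in the annotation and transcribed towards each other. In WT MI against WT sham Igfbp5 was called (log2 -0.81) and Igfbp2 was not (log2 -0.29 ± 0.40). The neighbours of Igfbp6 on chromosome 15, Spryd3 at 8.13 kb and Csad at 27.5 kb, were not called in any comparison, with log2 values in KO sham against WT sham of 0.16 and -0.01. The neighbour of Igfbp4 on chromosome 11, the proliferation-associated topoisomerase gene Top2a at 17.1 kb, rose in KO MI against KO sham (log2 0.55) and was lower in KO sham than in WT sham (log2 -0.49), whereas Igfbp4 was called in neither. Polr2b, which overlaps Igfbp7 on the opposite strand by 84 bases, was called in no comparison.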
